A study of Homo sapiens with 6 samples.

Results

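HEK293 cells cut with Cas9 at either of 2 zinc finger genes were compared, as a whole, with HEK293 cells that received Cas9 and no guide. The comparison set the 4 guide libraries together against the 2 empty vector (EV) libraries, which are all 6 libraries of the series. Genes that moved the same way under both sets of guides were its subject, and they were 2 of 22010 genes tested. Genes changed in 1 guide group were set aside.

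HEK293 is a line derived from human embryonic kidney and transformed with adenovirus DNA. All cells were transiently transfected with the plasmid PX459, which carries Cas9 and puromycin resistance, selected with puromycin for 36 h and grown out for a total of 2 weeks. In sgZNF146 the plasmids carried 4 guides against ZNF146, in sgZNF507 4 guides against ZNF507, and in EV no guide. The cells were pools and not clones, each group has 2 libraries called biological duplicates, and p-values measure the spread between such duplicates only. The guide groups differ from EV both in being cut and in which gene was disrupted, and these cannot be told apart where both groups moved together.

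Cas9 makes a double-strand break at a site that matches its guide and lies next to a short motif (PAM) of the form NGG, in which N can be any base. Cells rejoin such breaks mostly by end joining, which leaves small insertions and deletions, and the break is sensed by kinases that stabilise the transcription factor p53, which raises genes such as CDKN1A and MDM2. In HEK293 cells, adenoviral proteins bind p53 and restrain it. DNA that escapes from damaged nuclei can be sensed in the cytoplasm by cGAS, which turns on interferon genes.

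The 8 target sequences are shown because they are what separates the guide libraries from EV. They are given 5′ to 3′ as they lie on GRCh37 (hg19), with the 3 bases of the adjacent motif in capitals. The published sequences, of 18 to 20 nt, were placed in reverse complement and extended to 20 nt with genomic bases, which put NGG after 8 of 8, against 2 of 8 as listed. All 4 sequences for ZNF146 lie in the coding part of exon 4 of 4, and all 4 for ZNF507 in the coding part of exon 3 of 7.
ZNF146 guide 1: gaaaatgctcatgctcagtgAGG
ZNF146 guide 2: catcacttattgtacatgtgAGG
ZNF146 guide 3: gccagcagagaatttacagtGGG
ZNF146 guide 4: gagtgtggaaaaaccttcagTGG
ZNF507 guide 1: ggaggaacttgaagcccacgTGG
ZNF507 guide 2: aagtttgtccggaaacaatgTGG
ZNF507 guide 3: tattacatctagaagccaggAGG
ZNF507 guide 4: gagttgacaagagccaacctGGG

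The ZNF146 sequences lie, in this order, at chr19:36727432-36727454 on the minus strand and at chr19:36727932-36727954, chr19:36727356-36727378 and chr19:36727736-36727758 on the plus strand. The listed sequences of ZNF146 guides 2 and 4 matched chromosome 19 at 2 places, and those of the other guides at 1. The ZNF507 sequences lie on the plus strand at chr19:32844237-32844259, chr19:32845605-32845627, chr19:32844219-32844241 and chr19:32845261-32845283. Both genes are on the long arm of chromosome 19, 3.83 Mb apart.

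Whole-number read counts per gene were available for each library, with totals from 22724439 to 28524025. Levels below are CPM, the counts of a gene per fixed library size, scaled by the trimmed mean of M-values (TMM). Of 9 genes listed as markers of the HEK293 line, 8 were matched and present in every library, from VIM (1011 to 1146 CPM) to EYA1 (3.86 to 5.31 CPM). HBB and UMOD were at 0 counts, and PTPRC and ALB were at 6 counts or fewer, while the podocyte gene NPHS1 had 29 to 50 counts in each library. A shift of the median of all genes was at most 0.0035 on the log2 scale under the 3 scalings tried.

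The targeted genes were examined first, as a check of the labels. ZNF507 was at 72.0 and 75.5 CPM in EV, 71.3 and 73.3 in sgZNF146 and 47.2 and 48.7 in sgZNF507. It was therefore low in both libraries of its own guides and near EV in the others, with a log2 fold change of -0.62 in sgZNF507 (adjusted p = 0.00195, edgeR quasi-likelihood, Benjamini-Hochberg). ZNF146 was at 115 and 105 CPM in EV, 99.2 and 103 in sgZNF146 and 88.4 and 101 in sgZNF507. The 4 guide libraries were all below EV, but ZNF146 did not pass in its own guide group (-0.13, unadjusted p = 0.126 by edgeR), so the level of its mRNA does not check that label. Guides that shift the reading frame need not lower the mRNA. The paper reports that western blots of the targeted cells showed essentially no ZNF146 or ZNF507 protein. It also reports indels at the guide sites of both genes in the RNA-seq reads, absent from control cells. Neither can be read from counts per gene.

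Very few genes were called between the guide libraries and EV when the replicate number was left out of the fit. In the contrast of the mean of both guide groups with EV, 3 of 22010 genes were called at an adjusted p under 0.05 by edgeR (0.0136%). The gene that rose was the lysosomal GLA (0.00454%), and the 2 that fell were the U1 variant RNA gene RNVU1-9 and the lysosomal GLMP (0.00909%). At an unadjusted p under 0.05 the contrast held 570 genes (2.59%), 263 higher (1.19%) and 307 lower (1.39%). These p-values leaned high, with 6.10% of genes at 0.1 or below and 11.4% above 0.9. A low number of calls from this fit therefore does not show that few genes changed. RNVU1-9 and GLA met the rule for shared genes (2 genes, 0.00909%, with 0.00454% in each direction). That rule asks each guide group for the same sign and an unadjusted p under 0.05 only, and neither gene passed an adjusted p in sgZNF146 by edgeR. GLMP moved in sgZNF507 and was set aside. When the replicate number entered as a block, the calls of edgeR numbered 73 (0.332%), 35 of them upward (0.159%) and 38 downward (0.173%). Of these, 15 were shared (0.0682%), 7 higher (0.0318%) and 8 lower (0.0363%). With no filter on low counts, and no block, edgeR called 45 of 36846 genes (0.122%), of which 11 were shared (0.0299%).

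**Figure D1:**
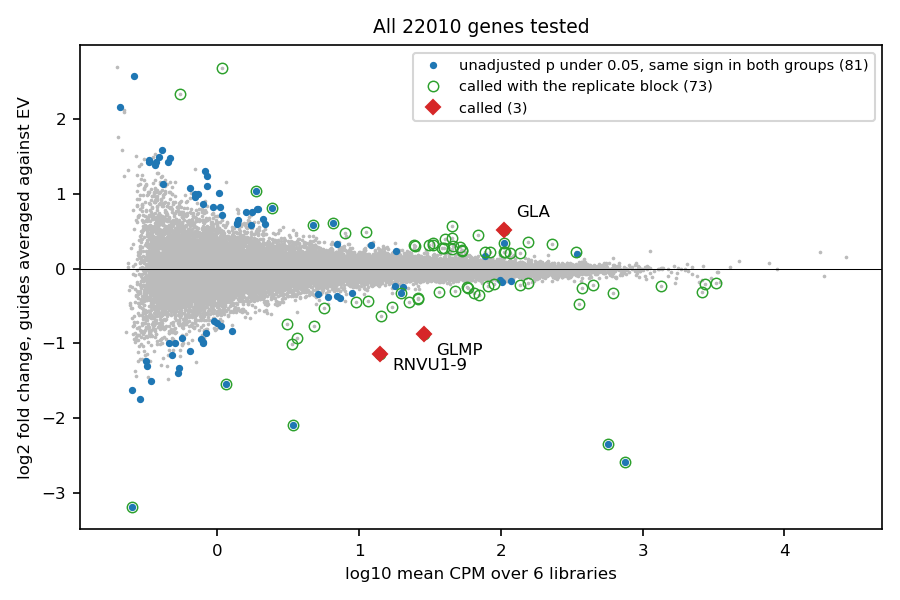
Log2 fold change of the guide groups averaged against EV (vertical) against log10 of the mean CPM over 6 libraries (horizontal) for 22010 genes. Red diamonds mark the 3 called genes, blue points the 81 with an unadjusted p under 0.05 and the same sign in both groups, and green circles the 73 called with the replicate block; most genes lie close to 0, and the spread widens at low levels.

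The spread of all genes around 0 was small. After averaging, 96.5% of the genes lay within 1.5-fold of EV and 132 genes differed by over 2-fold. Among the 12999 genes with a mean of 100 or more counts, 99.9% lay within 1.5-fold and 3 differed by over 2-fold. The wide values thus came from genes with few counts, of which 129 of 9011 passed 2-fold.

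GLA encodes alpha-galactosidase A, a lysosomal enzyme that removes terminal galactose from glycolipids, and it was the shared gene that rose. Its level was 85.6 and 74.8 CPM in EV, 92.2 and 97.0 in sgZNF146 and 148 and 132 in sgZNF507. The 4 guide libraries were all above both EV libraries, narrowly so in sgZNF146 and clearly in sgZNF507. Averaged over guides the log2 fold change was 0.52 (SE 0.071, adjusted p = 0.0482, edgeR quasi-likelihood, Benjamini-Hochberg). It was 0.24 in sgZNF146 (unadjusted p = 0.0111 by edgeR) and 0.80 in sgZNF507, and the difference of 0.57 between the guide groups was itself past the threshold (adjusted p = 0.0112). GLA lies on chromosome X from 100648261 to 100663000 of GRCh37 and overlaps RPL36A on the opposite strand. Leaving out either EV library or either sgZNF146 library ended its call, with adjusted p from edgeR between 0.0655 and 1.00.

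RNVU1-9 is a variant copy of the gene for U1, the small nuclear RNA that recognises 5′ splice sites, and it was the shared gene that fell. Its level was 22.2 and 19.1 CPM in EV, 18.0 and 14.5 in sgZNF146 and 5.51 and 5.25 in sgZNF507. All 4 guide libraries were below EV, the first sgZNF146 library by the least and both sgZNF507 libraries by the most. The averaged log2 fold change was -1.14 (SE 0.112, adjusted p = 0.00463, edgeR quasi-likelihood, Benjamini-Hochberg). It was -0.34 in sgZNF146 (unadjusted p = 0.0192 by edgeR) and -1.94 in sgZNF507, with a difference between guide groups of -1.60 (adjusted p = 4.3e-04). In a bulk sample, fewer cells with a transcript and less of it per cell cannot be told apart. RNVU1-9 lies on chromosome 1 from 147511004 to 147511167 of GRCh37, and U1 has many near-identical copies, so its count is uncertain. Without the first EV library the adjusted p from edgeR was 0.0584, and without the second sgZNF146 library the gene was called but no longer shared.

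**Figure D2:**
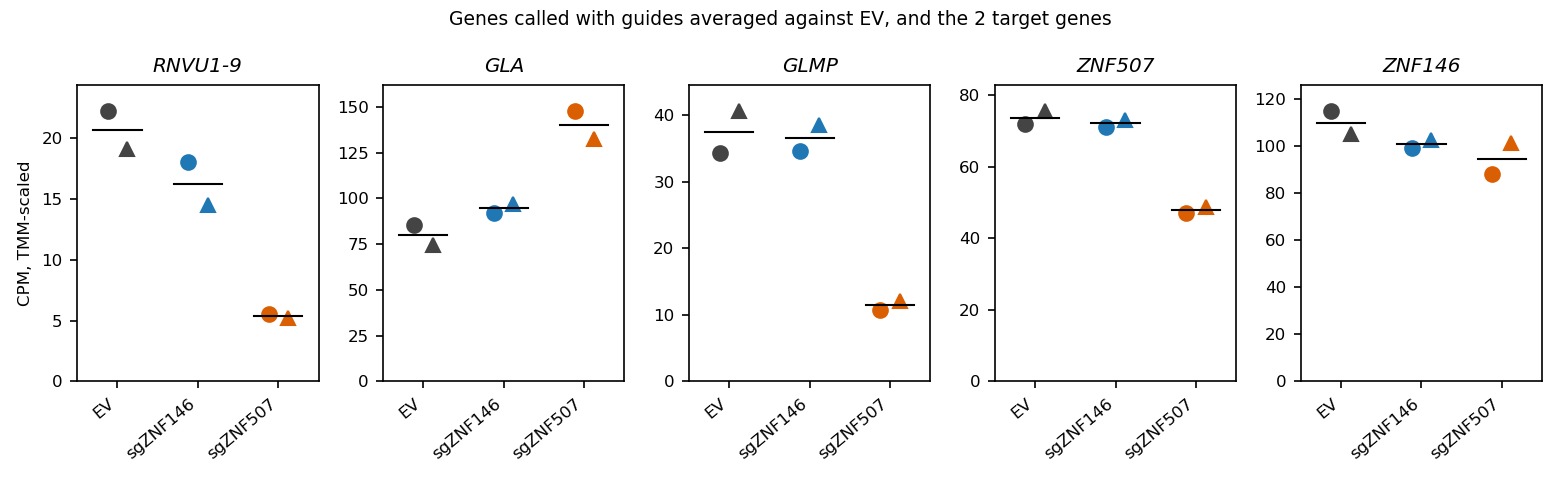
TMM-scaled CPM by library for the 3 called genes and the 2 targeted genes, with axes from 0. Circles are replicate 1, triangles replicate 2 and lines the mean of 2 libraries; the sgZNF507 libraries stand apart for RNVU1-9, GLA, GLMP and ZNF507, while sgZNF146 lies between EV and sgZNF507 for RNVU1-9 and GLA and at the EV level for GLMP and ZNF507.

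Both shared genes therefore moved further in sgZNF507 than in sgZNF146. No gene was called in sgZNF146 against EV alone by edgeR, where 535 passed an unadjusted p of 0.05 (2.43%), and none by DESeq2. The same contrast with the replicate block held 33 calls by edgeR (0.15%) and 2 by DESeq2. In sgZNF507, edgeR called 40 genes (0.182%), or 121 with the block (0.55%), and 747 passed an unadjusted p of 0.05 (3.39%). When a gene had to pass an adjusted p of 0.05 on the larger of its 2 group p-values by edgeR, 0 genes remained, and when the 4 guide libraries were fitted as 1 group 0 genes were called, with 526 at an unadjusted p under 0.05.

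A looser count took every gene with an unadjusted p under 0.05 and the same sign in both guide groups. It held 81 genes (0.368%), 44 in the upward direction (0.2%) and 37 in the downward direction (0.168%). Both group contrasts use the same EV libraries, so a chance deviation of EV moves both in 1 direction, and the count was not tested. With the replicate block it was 239 genes (1.09%), 141 upward (0.641%) and 98 downward (0.445%). In 80 of the 81 genes the guide libraries lay on 1 side of both EV libraries, which their choice nearly fixes, while 2269 of all genes tested did so (10.3%), 1089 of them above EV (4.95%) and 1180 below (5.36%).

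These genes were mostly of low abundance. Their median mean count was 26.8, against 224 over all genes tested, and 58 of the 81 (71.6%) had a mean under 100 counts, against 40.9% of all genes. Of them 37 were protein-coding (45.7%, against 67.0% of all genes), 20 long noncoding RNA, 11 pseudogenes, 3 mitochondrial RNAs, 6 small and other RNA genes, and 4 had no match in the annotation. A low gene passes at this depth with a large fold only, so the median size of 0.86 in sgZNF146 and 0.90 in sgZNF507 (absolute log2 fold change) is set by the filter on p.

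Among the 10 genes named as higher in both groups, LGALS3BP, EGR1 and LRRC56 were protein-coding genes beside GLA. LGALS3BP encodes a secreted glycoprotein that binds galectins. It was at 92.5 and 85.9 CPM in EV, 115 and 115 in sgZNF146 and 123 and 100 in sgZNF507. All guide libraries were above EV, with an averaged log2 fold change of 0.34 (SE 0.077) that did not pass (adjusted p = 0.747, edgeR quasi-likelihood, Benjamini-Hochberg) but passed with the replicate block (adjusted p = 2.9e-05 by edgeR and 0.0030 by DESeq2), with no filter in edgeR and without the second sgZNF507 library. The difference between guide groups was -0.04 (SE 0.087).

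EGR1 encodes an immediate early transcription factor that growth factors and stress induce within minutes. Its level was 3.78 and 3.33 CPM in EV, 5.48 and 5.88 in sgZNF146 and 5.08 and 4.97 in sgZNF507. The groups did not overlap, which the choice of the gene required. The averaged log2 fold change of 0.59 (SE 0.145) passed with the replicate block in edgeR only (adjusted p = 0.0464, against 1.00 without the block and 1.00 with it in DESeq2). Without the block, no other of the 13 immediate early genes passed an unadjusted p of 0.05 by edgeR. FOS, JUN and IER2 had averaged log2 fold changes of 0.04, 0.0040 and -0.02.

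LRRC56, which encodes a leucine-rich repeat protein of motile cilia, was at 1.49 and 1.70 CPM in EV, 2.40 and 2.70 in sgZNF146 and 3.21 and 2.97 in sgZNF507. Its averaged log2 fold change was 0.81, called with the block alone by edgeR (adjusted p = 0.0464), and it overlaps LMNTD2 on the opposite strand. The noncoding gene ENSG00000272892 on chromosome 10 was at 1.21 and 0.977 CPM in EV and at 1.89 or more in each guide library, with 27 to 66 counts per library, and was called with the block (adjusted p = 0.0207) and with no filter. The remaining 5 of the 10 were at low levels, did not pass with or without the block, and included RP11-97C16.1, ENSG00000268912 and ENSG00000255165, which share their place with TRNT1, ZNF584 and ACCS.

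Among the 10 genes named as lower, PPT1 was the most abundant by mean count. PPT1 encodes a lysosomal thioesterase that removes palmitate from proteins. It was at 109 and 112 CPM in EV, 100 and 97.0 in sgZNF146 and 94.6 and 98.7 in sgZNF507, so that the guide libraries lay just below EV. The averaged log2 fold change of -0.18 (SE 0.054) did not pass by edgeR with or without the block (adjusted p = 0.0814 with it).

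IKZF3, which encodes the lymphoid zinc finger factor Aiolos, was at 1.81 and 1.81 CPM in EV, 1.06 and 0.954 in sgZNF146 and 1.04 and 1.00 in sgZNF507. The replicates agreed closely, which a choice of genes by small p favours. With 24 to 50 counts per library the averaged log2 fold change of -0.83 (SE 0.219) did not pass (adjusted p = 1.00, or 0.196 with the block, by edgeR), and the gene overlaps the pseudogene KRT8P34 on its own strand. ENSG00000255633, which has no match in the annotation, was counted 16 times in each EV library, 0 and 2 times in sgZNF146 and 4 and 1 times in sgZNF507. It was called with the block (adjusted p = 0.00333 by edgeR) and with no filter. The antisense genes MYG1-AS1 and RUNX2-AS1, the pseudogene UBE2SP2, ENSG00000270518 and CLDND2 had 2 to 35 counts per library and did not pass, and all but CLDND2 overlap another gene on the opposite strand.

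**Figure D3:**
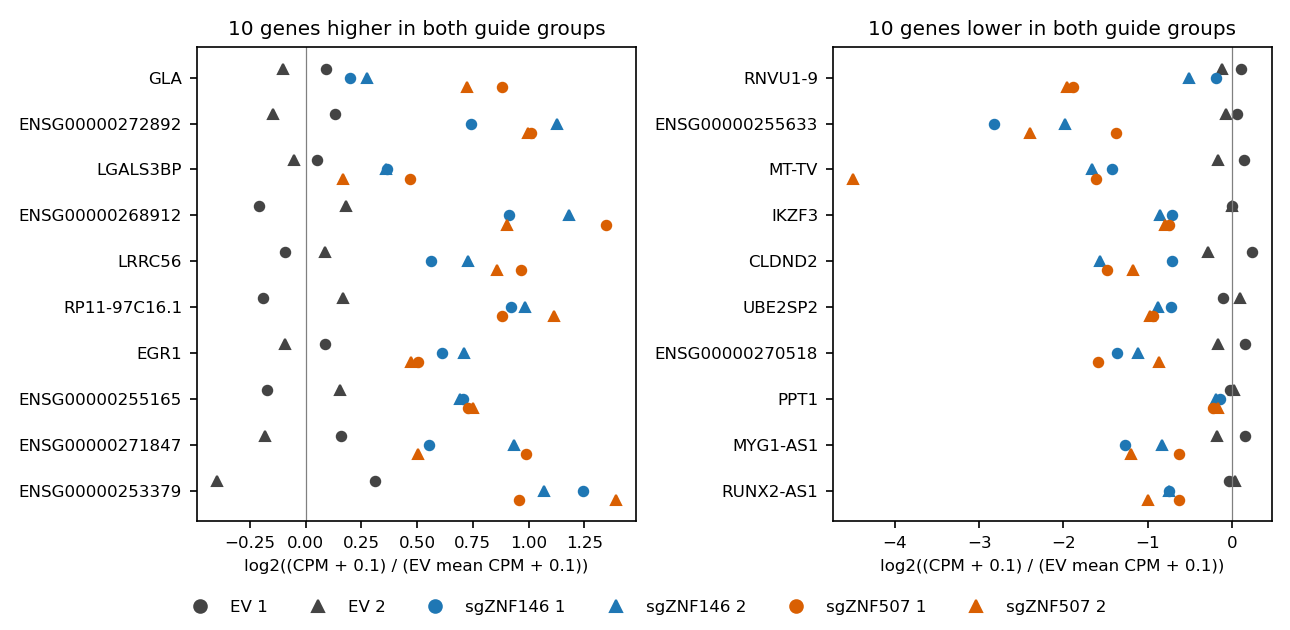
Log2 of (CPM + 0.1) over (EV mean CPM + 0.1) by library for the 10 genes named as higher (left) and the 10 as lower (right) in both guide groups. Colours are groups and shapes replicates; the guide libraries lie on 1 side of EV by the rule that chose the genes, closest for PPT1 and farthest for MT-TV in the second sgZNF507 library.

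Under the replicate block the shared genes numbered 15, and 4 more of them were named after their values were seen. LINC02043, a long noncoding RNA gene, was at 5.22 and 4.34 CPM in EV, 5.75 and 7.19 in sgZNF146 and 8.64 and 7.84 in sgZNF507, and PCDH9, which encodes the neuronal adhesion protein protocadherin 9, was at 89.7 and 89.2, 69.1 and 73.8, and 77.9 and 85.3. LINC02043 was thus highest in sgZNF507 and PCDH9 lowest in sgZNF146, at averaged log2 fold changes of 0.61 and -0.23 (adjusted p = 0.0114 and 0.0112 with the block, 0.974 and 1.00 without it, by edgeR), and LINC02043 was also called with no filter. The pseudogenes RPL18AP3 (0.31) and MTND4P12 (-0.32) copy a ribosomal protein gene and the mitochondrial gene MT-ND4, so reads of the parent gene may be counted in them. MT-ND4 itself had an averaged log2 fold change of -0.18, which did not pass by edgeR with the filter (adjusted p = 1.00, or 0.0518 with the block) and passed without it.

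Mitochondrial ribosomal RNAs made up 2 of the 3 genes with a mean of 100 or more counts that differed by over 2-fold, beside RNVU1-9. MT-RNR1 and MT-RNR2 are the small and large ribosomal RNAs of mitochondria, and MT-TV is the valine transfer RNA that lies between them and is cut from the same precursor. MT-RNR1 was at 1550 and 1673 CPM in EV, 133 and 158 in sgZNF146, and 944 and 50.9 in sgZNF507. MT-RNR2 was at 1154 and 1206 CPM in EV, 128 and 158 in sgZNF146, and 709 and 50.3 in sgZNF507. All 4 guide libraries were below EV for both genes, but the sgZNF507 libraries were on either side of sgZNF146, the first nearest to EV and the second the lowest of all.

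The averaged log2 fold change was -2.58 (SE 0.614) for MT-RNR1 and -2.34 (SE 0.566) for MT-RNR2. Neither passed (adjusted p = 0.974 and 1.00, edgeR quasi-likelihood, Benjamini-Hochberg), both passed with the replicate block in edgeR (1.8e-08 for each) and with no filter, and neither passed with it in DESeq2 (1.00 for each). Both passed by edgeR when either sgZNF507 library was left out, at -4.23 without the first and -2.11 without the second for MT-RNR1. Ribosomal RNA was depleted in the laboratory and again from the reads before mapping, and the share removed from each library is not given in the sources used here. The part of these steps in the difference was not tested.

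MT-TV was at 7.59 and 6.11 CPM in EV, 2.48 and 2.11 in sgZNF146, and 2.17 and 0.207 in sgZNF507. It followed the ribosomal RNAs in being below EV in every guide library, although its first sgZNF507 library was at the level of sgZNF146. The averaged log2 fold change was -2.10 (SE 0.368, adjusted p = 0.186 by edgeR, or 7.1e-10 with the block), it passed too with no filter or without either sgZNF507 library, and between 6 and 63 counts stood behind the guide libraries.

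The 13 mitochondrial mRNAs, which encode subunits of the respiratory chain and ATP synthase, showed smaller differences. Of the 13, edgeR called 0 with the filter and no block, 6 with the replicate block (background 0.173%) and 9 with no filter (background 0.122%), and DESeq2 called 0, or 2 with the block (background 0.0727%). At an unadjusted p under 0.05, 10 of 13 were lower (background 1.39%). Their median log2 fold change was -0.19 averaged over guides, -0.02 in sgZNF146 and -0.31 in sgZNF507, beside -0.0035 for all genes tested. MT-ND1 was at 1397 and 1591 CPM in EV, 1381 and 1378 in sgZNF146 and 1154 and 1183 in sgZNF507. It was low in sgZNF507 and just under the lower EV library in sgZNF146, and it was the 1 mRNA of the 13 with all guide libraries below EV. The averaged log2 fold change of MT-ND1 was -0.23 (adjusted p = 1.00, or 0.00750 with the block, by edgeR, and called with no filter), and its difference between guide groups passed with the block alone (adjusted p = 0.691, or 0.0121 with the block).

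**Figure D4:**
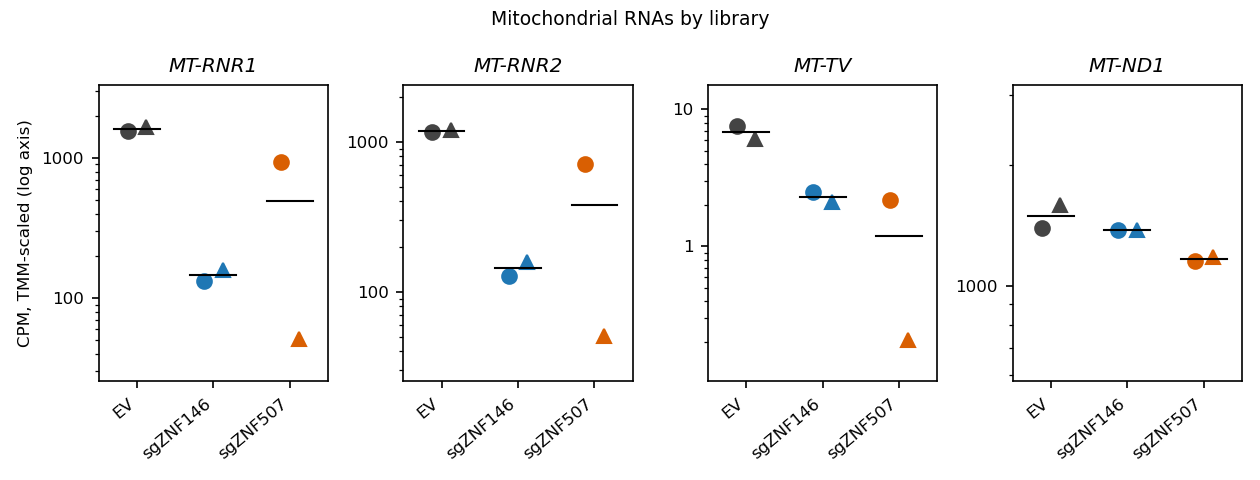
TMM-scaled CPM by library on log axes for MT-RNR1, MT-RNR2, MT-TV and MT-ND1. Circles are replicate 1, triangles replicate 2 and lines the mean of 2 libraries; the ribosomal RNAs and MT-TV are below EV in all guide libraries, with the second sgZNF507 library lowest, while MT-ND1 spans only 1154 to 1591 CPM.

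Genes of the responses that a double-strand break can set off were then read by list, against the same counts over all genes. Lists of other stress, metabolic and LINE-1 silencing genes were read with them, so pooled counts do not describe break responses alone. Across 11 lists of nuclear genes, 262 of 273 members passed the filter on low counts, genes in several lists such as ATF3 and ADAR being counted each time. None was called in either direction by edgeR or DESeq2 with the filter and no block. At an unadjusted p under 0.05 by edgeR, 4 were higher (1.53%, against 1.19% of all genes) and 2 lower (0.763%, against 1.39%). With the replicate block edgeR called 1 (EGR1, 0.332% of all genes being called) and DESeq2 none, and with no filter edgeR called 1, the heat shock gene HSPA1B (0.122% of all genes). HSPA1B, named after its values were seen, was at 708 and 1294 CPM in EV, 1085 and 1142 in sgZNF146 and 987 and 1505 in sgZNF507, so that its groups overlapped. The list medians lay between -0.04 and 0.03 on the log2 scale. Unless the block is named, unadjusted p-values of list members, here and below, are from edgeR without it.

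For p53 targets, 29 of 30 were tested, with a median of 0.03 averaged over guides, -0.00 in sgZNF146 and 0.04 in sgZNF507. CDKN1A, the cell cycle inhibitor that p53 raises most directly, was at 15.2 and 12.4 CPM in EV, 17.5 and 14.8 in sgZNF146 and 17.4 and 14.1 in sgZNF507. Its groups overlapped, with an averaged log2 fold change of 0.21 (SE 0.123, unadjusted p = 0.119 by edgeR without the block). Among libraries of the same replicate number, however, CDKN1A was higher in each guide group than in EV. With the block CDKN1A was not called either (adjusted p = 0.693 by edgeR). MDM2, which encodes the ligase that degrades p53, had 0.06 (SE 0.060), and BBC3, a mediator of p53-dependent cell death, 0.13 (SE 0.150). BAX, which encodes a protein that permeabilises mitochondria, had 0.18 at an unadjusted p of 0.0103 by edgeR. BAX was at 88.3 and 90.4 CPM in EV, 90.0 and 83.6 in sgZNF146 and 124 and 114 in sgZNF507, so it was high in sgZNF507 only, and the difference of 0.45 between guide groups passed (adjusted p = 0.0204 by edgeR). TP53INP1, which promotes autophagy, was the second p53 target past an unadjusted p (0.39, SE 0.158) and was above EV in all guide libraries, at 5.63, 5.33, 4.64 and 5.73 CPM against 3.58 and 4.56.

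For DNA double-strand break signalling and repair, 30 of 30 genes were tested and none passed an unadjusted p of 0.05 by edgeR without the block. Their median was -0.0042, and members ranged from -0.15 for NBN, a subunit of the complex that detects broken ends, to 0.10. With the block NBN had an unadjusted p of 0.0114 by edgeR (adjusted p = 0.623). Of the 31 genes of S and M phase all were tested and none passed without the block. Their median was 0.01, with a range from -0.14 (CCNE1, the cyclin of S phase entry) to 0.09. CCNE1 had an unadjusted p of 0.0430 with the block by edgeR (adjusted p = 0.840). The summed level of these cell cycle genes was 6047 to 6060 CPM in EV and 6079 to 6110 in the guide libraries.

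For the interferon response and nucleic acid sensing, 33 of 39 genes were tested, with a median of 0.03. None passed an unadjusted p of 0.05 by edgeR without the block. The sensor CGAS was at 1.41 and 1.23 CPM in EV, 1.85 and 1.59 in sgZNF146 and 1.91 and 1.69 in sgZNF507. All guide libraries were above EV, with an averaged log2 fold change of 0.42 (SE 0.219, unadjusted p = 0.0800 by edgeR) on 34 to 49 counts per library. IFITM3, a membrane protein that blocks virus entry, had 0.35 (SE 0.168) with overlapping groups. With the block IFITM3 had an unadjusted p of 0.00526 by edgeR (adjusted p = 0.478). ISG15 and IFIT1, common markers of the response, had 0.22 and -0.21.

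Stress lists gave equally small medians. The median was -0.04 for ATF4 targets of the amino acid response, 0.00043 for ER chaperones, -0.02 for heat shock, -0.02 for immediate early genes and 0.01 for hypoxia and glycolysis. WARS1, a tRNA synthetase gene and ATF4 target (-0.15), and HSP90AA1, which encodes a cytosolic chaperone (-0.13), were the 2 members lower at an unadjusted p under 0.05, and in both all guide libraries were below EV. Cholesterol synthesis had a median of 0.02, with MVD, the decarboxylase of the mevalonate pathway, the 1 of 23 members past an unadjusted p (0.15, SE 0.065). LINE-1 silencing and restriction genes had a median of 0.01 over 18 tested, and replication-dependent histone genes 0.01 over 31, with 1 of the 31 past an unadjusted p.

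**Figure D5:**
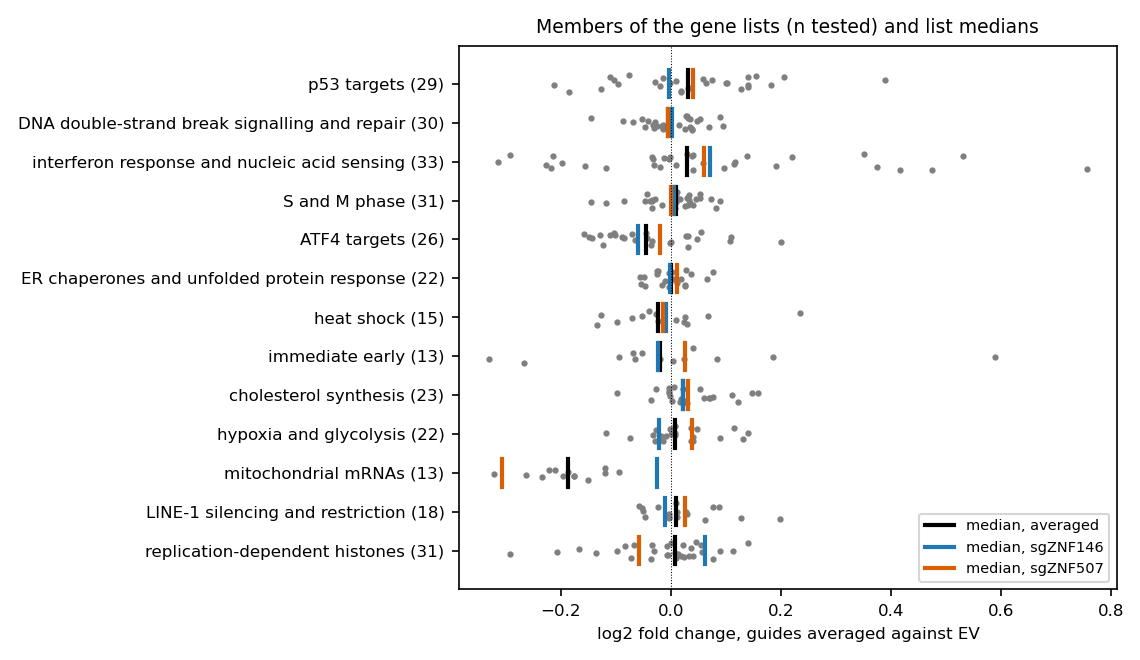
Averaged log2 fold change (horizontal) of each tested member (grey points) of 13 gene lists, with the list median averaged over guides (black), in sgZNF146 (blue) and in sgZNF507 (orange). Medians other than those of the mitochondrial mRNAs lie within 0.0711 of 0; the mitochondrial mRNAs lie at -0.02 in sgZNF146 and -0.31 in sgZNF507.

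Small RNA genes and genes of the cut chromosome were read in the same way. Of 148 snoRNA and scaRNA genes tested, none was called by edgeR without the block, and 4 were called lower with it (0.173% of all genes). Without adjustment or block, 2 passed upward (1.35%, against 1.19% of all genes) and 9 downward (6.08%, against 1.39%). The median of -0.08 was 0.01 in sgZNF146 and -0.12 in sgZNF507. Of 486 other small RNA genes, RNVU1-9 was the 1 called without the block (lower, against 0.00909% of all genes), and the median was -0.04. Without adjustment 8 of the 486 were higher (1.65%, against 1.19%) and 21 lower (4.32%, against 1.39%). With the block edgeR called 8 of the 486 lower (0.173% of all genes). The summed level of all other small RNA genes was 18819 and 20340 CPM in EV, 28491 and 22322 in sgZNF146 and 17801 and 18893 in sgZNF507, so libraries of 1 group differed widely.

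Cas9 cuts can be followed by loss of the chromosome arm beyond them, and the genes of chromosome 19 were divided by position. Distal to ZNF146, 533 genes were tested, of which none was called by edgeR, 2 were higher (0.375%, against 1.19% of all genes) and 10 lower (1.88%, against 1.39%) at an unadjusted p under 0.05. The median there was -0.05 averaged over guides, -0.06 in sgZNF146 and -0.03 in sgZNF507. In 47 of these genes the guide libraries were below both EV libraries (8.82%, against 5.36% of all genes) and in 11 above (2.06%, against 4.95%). Between ZNF507 and ZNF146, which the ZNF507 guides alone would leave distal, 66 genes had a median of -0.02. It was -0.01 in sgZNF146 and -0.05 in sgZNF507. Of the 66, 5 were below both EV libraries in all guide libraries (7.58%, against 5.36% of all genes) and 1 above (1.52%, against 4.95%). The 520 tested genes of chromosome 19 before ZNF507 had a median of 0.01, with 17 below EV (3.27%) and 33 above (6.35%). They include the genes of the short arm, so they are not only the flank of the cuts on the long arm. Neighbouring genes are not independent, and the medians of these segments were not tested.

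The genes set aside numbered 38 (0.173%), 24 higher and 14 lower, and every one was called in sgZNF507 and none in sgZNF146. With the replicate block they numbered 136 (0.618%), 61 higher and 75 lower. Leaving out the first EV library, the second EV library or the first sgZNF507 library gave 11, 21 and 20. In 31 of the 38 (0.141% of all genes) the difference between the guide groups was itself called, and for the other 7 a difference was not shown. GLMP, which encodes a glycosylated membrane protein of lysosomes, was called in the averaged contrast (-0.87, adjusted p = 0.00498 by edgeR) although it moved in 1 group. It was at 34.3 and 40.5 CPM in EV, 34.6 and 38.6 in sgZNF146 and 10.7 and 12.2 in sgZNF507. The sgZNF146 libraries lay within EV, at -0.04 (SE 0.105), while sgZNF507 was at -1.71 (SE 0.115).

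The other genes named there behaved alike. COMMD9, an endosomal trafficking gene, NAGPA, which encodes the enzyme that uncovers mannose 6-phosphate on lysosomal enzymes, and RAB17, a small GTPase of membrane traffic, were higher in sgZNF507 by 0.94, 1.16 and 4.61 on the log2 scale. In sgZNF146 they had -0.11, -0.02 and 0.77, the last on 5 and 5 counts against 4 and 2 in EV. WDR81, a regulator of endosomes, fell by 0.70 in sgZNF507 and had -0.01 in sgZNF146. Averaging over guide groups gave these 4 genes adjusted p-values between 0.108 and 0.431 by edgeR, and with the replicate block or with no filter all 4 were called in the averaged contrast, as was ZNF507 (adjusted p = 9.0e-05, against 0.249 without the block). A call in the averaged contrast thus did not require a change in both groups.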

How the data were processed

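RNA-seq of HEK293 cells was available for 6 libraries in 3 groups of 2, grouped by the sample labels. Per the study's methods, strand-specific, ribosome-depleted paired-end reads were clipped with the Fastx Toolkit, cleared of ribosomal RNA with Bowtie and mapped to hg19 (GRCh37) with TopHat2, and the authors counted reads per Ensembl gene with featureCounts. The submitters' processing notes name TopHat2, featureCounts, hg19 and GRCh37, and versions of these tools are not given in the sources used here. The deposited values are raw whole-number counts per gene, with no normalization or pooling. The strand setting of the counting is not stated, so reads of overlapping genes on opposite strands may be mixed. Molecular identifiers were not used, so PCR copies count as reads. Replicates differed by more than counting noise (chi-square per degree of freedom 6.85 for EV, 10.3 for sgZNF146, 10.0 for sgZNF507).

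Counts were filtered by filterByExpr on 3 groups (22010 genes kept), scaled by TMM and fitted with glmQLFit and glmQLFTest in edgeR 4.0.16 under R 4.3.3, p-values being adjusted over all tested genes after Benjamini and Hochberg, with a threshold of 0.05. The main contrast was the mean of the guide groups minus EV. A gene was shared when called there, with an unadjusted p under 0.05 and the same sign in each guide group, and with the 4 guide libraries on 1 side of both EV libraries. Standard errors were derived from the F statistic and are approximate. Fold changes of genes with few counts depend on the prior count of the fit.

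The members, lists and alternatives were chosen with earlier results of these data known. Named genes were both targets, up to 10 shared genes in each direction, filled with the genes of smallest larger-of-both group p on 1 side of EV, the 3 set-aside genes of smallest p in each direction and guide group, and in each list the 2 members of smallest averaged p. Other names were chosen after their values were seen. Gene models came from GENCODE on GRCh37, which matched 96.1% of 57773 identifiers, and 302 of 305 list symbols were found.

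Replicate numbers are shared by the labels of all groups. Deviations of same-numbered libraries from their group means correlated across genes at 0.138 (EV and sgZNF146), 0.176 (EV and sgZNF507) and 0.145 (sgZNF146 and sgZNF507). The numbers were taken to pair the libraries in the fits with the replicate block only. The main fit had no replicate term and treated the libraries as unpaired. The alternatives were the replicate number as a block, DESeq2 1.42.0, other scalings and filters, guides as 1 group, an intersection-union rule and leaving out each library. The steps were tested on simulated data with larger changes than those of the shared genes in sgZNF146. The changes were put in better counted genes only, with no replicate effect, so small changes, low counts and the block were not covered.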

Additional observations from a re-analysis of the deposited data

Results flagged for a closer look

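In 4 of 56 named genes, 1 of the 4 guide libraries stood apart from the other three, with a gap to its nearest neighbour, as a share of the whole range, above 0.829. Chance flags about 1 in 20 groups. The second sgZNF507 library was low for MT-TV (0.835), and the first was high for MT-RNR1 (0.880), MT-RNR2 (0.837) and APOBEC3F (0.887).

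For 9 named genes the effect of the guides differed between the groups, tested by edgeR as sgZNF507 minus sgZNF146 with Benjamini-Hochberg adjustment. Both shared genes were among them, GLA at 0.57 (adjusted p = 0.0112) and RNVU1-9 at -1.60 (adjusted p = 4.3e-04). The targeted gene ZNF507 differed by -0.59 (adjusted p = 0.00307). The genes set aside differed by 1.05 for COMMD9, 1.19 for NAGPA, 3.85 for RAB17, -1.68 for GLMP and -0.69 for WDR81, with adjusted p between 7.1e-05 and 0.00446. BAX, a p53 target, differed by 0.45 (adjusted p = 0.0204).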

How the results depend on the processing

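The 3 genes called on average became 45 with no filter on counts, 8 by DESeq2, 0 with guides as 1 group, 73 with the replicate block in edgeR and 16 with the replicate block in DESeq2, and 1 to 8 when 1 library was left out. The 2 shared genes became 1 with upper-quartile scaling or at least 10 counts in every library (GLA lost), 11 with no filter, 0 with guides as 1 group or by intersection-union, 15 with the replicate block in edgeR, and 0 to 6 when 1 library was left out. The 81 genes past an unadjusted p in both groups became 169 with no filter, 10 by DESeq2, 239 and 21 with the replicate block in edgeR and DESeq2, and 51 to 162 when 1 library was left out. The 38 set aside became 102 with no filter, 136 and 59 with the replicate block in edgeR and DESeq2, and 11 to 38 when 1 library was left out. The averaged fold change of ZNF507 passed at -0.32 with no filter (adjusted p = 0.00639) and with the block in edgeR and DESeq2 (adjusted p = 9.0e-05 and 0.00994). Without the second EV library the sign turned for XRCC1 (0.018), CCNE1 (0.017) and PDIA4 (0.00011), none of them called, and leaving out 1 library gave them at lowest -0.19, -0.29 and -0.097. The cause of these changes was not tested. Of 266 alternative list medians, 18 moved by more than the spread between guide libraries. Depth limits genes under 100 counts most. The fits that leave out a library assume that a lone library varies like the other groups.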
